A study of Mus musculus with 10 samples.

Results

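The genes described here are 50 ribosome biogenesis and nucleolar genes of the 9690 genes in the deposited table of mRNA per cell from mouse splenic B cells. They were chosen by symbol alone: a name that begins with Nop, Nol, Utp or Rrp and a digit or with Polr1, or 1 of the genes Ncl, Npm1, Fbl, Dkc1, Gar1, Nhp2, Bop1, Pes1, Imp3, Imp4 and Mybbp1a. By role, 5 encode RNA polymerase I subunits, 2 abundant nucleolar proteins, 3 box C/D and 4 box H/ACA small nucleolar ribonucleoprotein (snoRNP) components, 22 components of the small subunit processome, 11 large subunit assembly factors, and 3 are other nucleolar or pre-ribosome factors. All 50 passed the filter on low values and 0 had a value of 0 in any library.

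Ribosomes are built in the nucleolus. RNA polymerase I transcribes the ribosomal RNA precursor, snoRNPs direct its methylation and pseudouridylation, the small subunit processome cleaves and folds the part that becomes the small subunit, and a separate set of factors assembles the large subunit. In B lymphocytes this pathway is known to be raised when a resting cell is activated and prepares to grow and secrete antibody, and marginal zone B cells are known to respond faster than follicular B cells.

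The series compares LSD1-deficient with control B cells of 2 splenic subsets. LSD1, encoded by Kdm1a, is a histone demethylase. Unstimulated cells of female C57BL/6J mice were sorted as marginal zone B cells (MZB; B220+ CD93- GL7- CD23- CD21hi CD1d+) or follicular B cells (FoB; B220+ CD93- GL7- CD23+ CD21mid CD1d-), after removal of cells with Thy1.1, F4/80 or CD11b. There were 3 wild-type and 2 knockout MZB libraries and 2 wild-type and 3 knockout FoB libraries, each made with poly(A) selection from all RNA of 50000 cells. The labels used here name no age, no deleted part of Kdm1a and no Cre driver. They also do not say that each library came from its own mouse, and p-values therefore describe the spread among libraries, which may be technical.

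Each value was used on 2 scales. The per cell scale is the deposited mRNA per cell. The rescaled values divide each library by 1 factor, a trimmed mean of its log-ratios to the mean library, so that the typical gene is level across libraries. The factor ran from 0.62 to 1.76, and the deposited totals ran from 74815 to 99800 mRNA per cell in wild-type MZB, 105590 to 121071 in knockout MZB, 45237 to 56438 in wild-type FoB and 43562 to 55704 in knockout FoB. Rescaling moved the median log2 difference of all genes between wild-type MZB and FoB from 0.78 to 0.00, and that between knockout MZB and FoB from 1.13 to 0.00. In bulk samples fewer cells of a type and less RNA per cell cannot be told apart, and whether the per cell factors track RNA content or recovery was not tested. Recovered reads summed to 4161051 to 6711847 per library, and the members had a mean of 74.2 to 5006.8 reads per library, with a median of 328.9.

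The rescaled level of Kdm1a was 5.63 to 5.83 over all reads of the gene in wild-type MZB, 3.37 to 3.48 in knockout MZB, 6.84 to 7.01 in wild-type FoB and 3.01 to 3.09 in knockout FoB, so the groups did not overlap within either subset. On the per cell scale its log2 change was -0.39 in MZB (limma adjusted p = 0.118) and -1.12 in FoB (limma adjusted p = 4.31e-05). After rescaling it was -0.69 in MZB and -1.1 in FoB. The difference between the MZB and FoB changes did not pass on either scale (limma adjusted p = 0.102 per cell and 0.0721 rescaled). The summed rescaled level of 8 marginal zone markers, which include Cr2 and Cd1d1, was 499 to 541 in wild-type MZB and 441 to 465 in knockout MZB, against 131 to 144 in the FoB libraries. The 5 measured of 6 follicular markers, which include Fcer2a, summed to 57.5 to 66.9 in wild-type MZB, 86.6 to 86.9 in knockout MZB and 301 to 325 in FoB. Of the markers of other cells, 0 of 5 erythroid and 0 of 5 neutrophil genes were measured. The 1 of 8 T cell genes measured, Lck, was 2.7 to 3.36 in wild-type and 4.59 to 4.79 in knockout MZB after rescaling. In FoB it was 4.16 to 4.34 in wild type and 4.33 to 5.41 in the knockout. The 1 of 5 NK cell genes measured, Prf1, was 0.83 to 1.11 in wild-type and 0.62 to 0.98 in knockout MZB. After rescaling, Itgam and Ly6c2, markers of myeloid cells, and Flt3, a marker of dendritic cells, were higher in the knockout in both subsets. The 3 of 8 macrophage and monocyte genes measured, Itgam, Cd68 and Ly6c2, summed after rescaling to 1.8 to 3.27 in wild-type and 4.92 to 5.89 in knockout MZB, and to 1.77 to 2.41 and 4.64 to 6.49 in FoB. The 2 of 6 dendritic cell genes measured, Flt3 and Cst3, summed to 9.11 to 9.47 and 12.7 to 15 in MZB, and to 15.8 to 15.9 and 16.5 to 20.3 in FoB.

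The promoter letters are shown for 3 members. These are Nol12, the only member called between knockout and wild type, and in MZB alone, Dkc1, the member with the lowest rescaled change in knockout MZB, and Nop2, which holds both motifs searched. The rescaled Nol12 call did not hold with any single MZB library left out. Each line is the 250 bases before the start of transcription, 5′ to 3′, from RefSeq on GRCm38.p6. They lie at chr15:78934683-78934932, plus strand (Nol12), chrX:75095604-75095853, plus strand (Dkc1) and chr6:125131633-125131882, plus strand (Nop2). Capitals mark the E-box CACGTG, the core site of Myc-family factors, and the ETS motif CCGGAAG, searched on both strands.
Nol12: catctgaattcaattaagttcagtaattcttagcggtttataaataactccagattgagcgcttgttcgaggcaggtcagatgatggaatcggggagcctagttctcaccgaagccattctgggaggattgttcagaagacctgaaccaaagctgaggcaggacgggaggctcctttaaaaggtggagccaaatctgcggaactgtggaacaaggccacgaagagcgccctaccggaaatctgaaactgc
Dkc1: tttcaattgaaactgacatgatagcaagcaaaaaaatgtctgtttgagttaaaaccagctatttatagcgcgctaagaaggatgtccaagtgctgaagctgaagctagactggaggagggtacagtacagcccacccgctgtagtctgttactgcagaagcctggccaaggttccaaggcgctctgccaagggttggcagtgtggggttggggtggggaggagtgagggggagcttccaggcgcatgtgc
Nop2: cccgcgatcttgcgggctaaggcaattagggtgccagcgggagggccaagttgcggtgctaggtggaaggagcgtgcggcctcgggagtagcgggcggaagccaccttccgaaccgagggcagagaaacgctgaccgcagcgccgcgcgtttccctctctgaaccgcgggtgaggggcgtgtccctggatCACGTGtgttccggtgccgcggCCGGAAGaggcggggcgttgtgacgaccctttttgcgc
Promoters were matched for 41 members, and the E-box occurred in 6 of them (14.6%), against 8.94% of the 7753 genes of the table with a promoter. The 6 were Imp4, Nol11, Nop2, Rrp7a, Utp14b and Utp18, with the E-box 20 to 208 bases before the start. CCGGAAG occurred in 10 of 41 (24.4%), against 16.6% of all. These letters are not in the windows of Nol12 and Dkc1. A match is a description of the letters and was not tested for binding.

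The 50 members together made up a small part of the mRNA, and more of it in MZB than in FoB. Their sum was 465, 653 and 549 mRNA per cell in the 3 wild-type MZB libraries and 602 and 716 in the 2 knockout MZB libraries. It was 310.3 and 234 in wild-type FoB and 244, 297 and 231 in knockout FoB. Every MZB library lay above every FoB library. As a share of all measured mRNA the sum was 0.624% ± 0.030 (SD, n = 3) in wild-type MZB, 0.581% ± 0.015 (n = 2) in knockout MZB, 0.534% ± 0.022 (n = 2) in wild-type FoB and 0.523% ± 0.014 (n = 3) in knockout FoB. Npm1 alone, the chaperone of the outer, granular part of the nucleolus, was 20.4% of the sum in wild-type MZB and 13.9% in wild-type FoB. Without Npm1 and Ncl the other 48 members were 0.459% ± 0.014 (SD) in wild-type MZB and 0.431% ± 0.016 in wild-type FoB, and 0.439% ± 0.012 and 0.415% ± 0.0075 in the knockout.

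**Figure D1:**
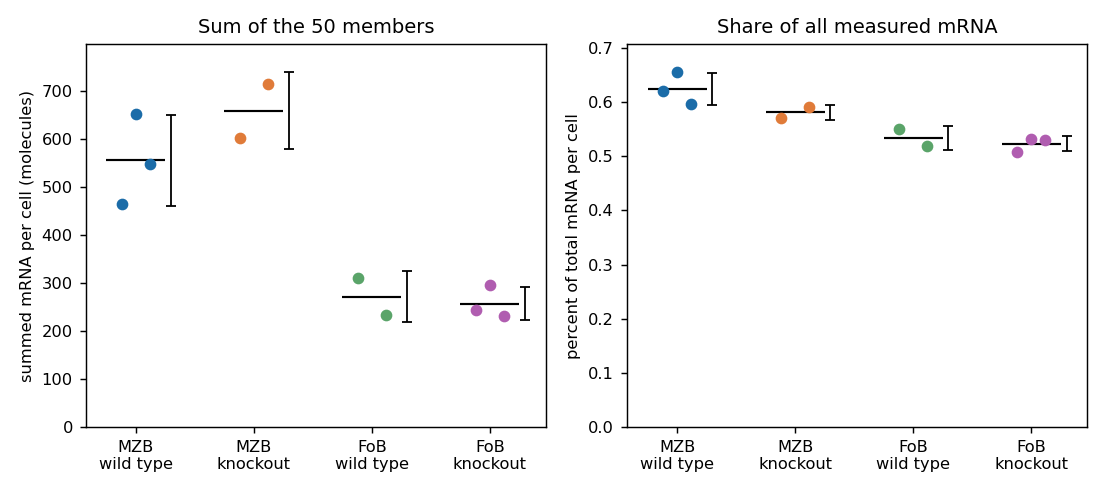
Sum of the 50 members in each library, as mRNA per cell (left) and as percent of all measured mRNA (right). Points are libraries, horizontal bars are group means and error bars are SD. The MZB libraries sit between 465 and 716 mRNA per cell and the FoB libraries between 231 and 310.3, while the shares run from 0.507% to 0.655%.

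Between the wild-type subsets, 47 of 50 members were higher per cell in MZB and 0 were lower, in a table where 84.2% of all genes were called higher. The test was limma on log2(value + 0.3) over all 10 libraries, with Benjamini-Hochberg adjustment over all 9690 genes and a threshold of 0.05. Per cell, limma's prior on the spread carried 86.9 degrees of freedom, against 4.97 after rescaling. All genes of a library share its per cell factor, so their errors are not independent. Very small per cell p-values should therefore not be read as evidence of that strength from groups of 2 or 3 libraries. The median member differed by 0.85 on the log2 scale and the median gene by 0.78. Between the knockout subsets all 50 were higher per cell in MZB, where 97.3% of all genes were, with medians of 1.16 and 1.13. The share of members called on the per cell scale was thus near that of all genes. Leaving out wild-type FoB library 2 lowered the wild-type count to 35.

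After rescaling, the direction was divided. In wild-type cells 9 members were higher in MZB and 7 lower, or 32.0% of them, where 24.9% of all genes were higher and 25.1% lower, 50.1% in either direction. In knockout cells 5 were higher and 3 lower, or 16.0%, where 18.1% of all genes were higher and 17.1% lower, 35.2% in either direction. Every wild-type MZB library lay above every wild-type FoB library for 14 members (35.2% of all genes) and below for 16 (34.9%). Between the knockout groups this held for 8 members above (27.8% of all genes) and 10 below (28.5%). The median member differed by 0.03 in wild-type and -0.03 in knockout cells. Differences were smaller than 0.3 on the log2 scale for 38 of 50 members in wild-type cells, against 52.9% of all genes, and for 45 of 50 in knockout cells, against 64.6%. The 2 comparisons share no library, but both take their spread from the same fit over all libraries, so their calls are not independent. Members called higher in both were Nop56, Npm1, Polr1e and Rrp1b (44.4% of the wild-type list and 80.0% of the knockout list), Utp14b was called lower in both (14.3% and 33.3%), and 0 members were called in opposite directions. The overlap was not computed over all genes, so these shares cannot be set against a background. A member past the threshold in only 1 genotype is not shown to differ between genotypes.

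**Figure D2:**
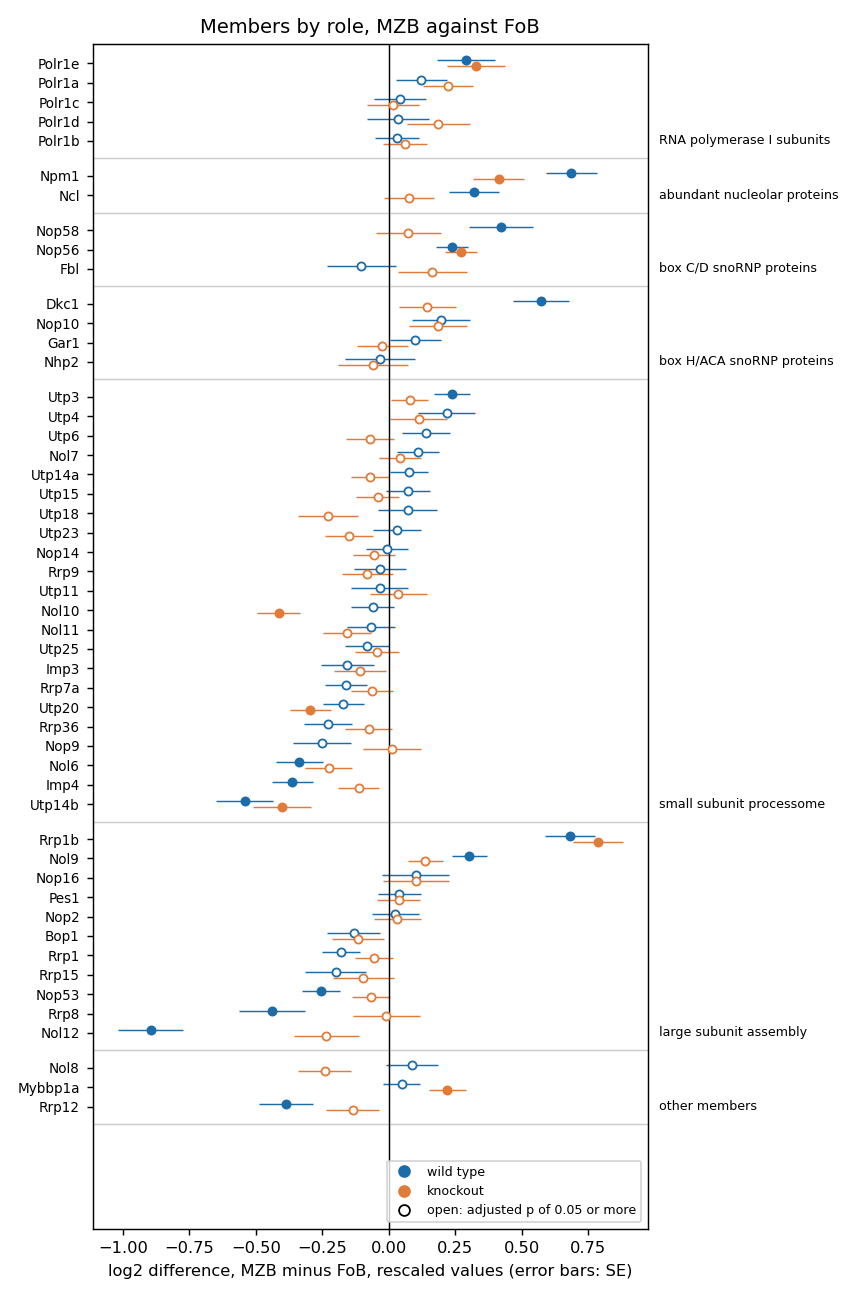
Rescaled log2 difference between MZB and FoB for each member, grouped by role, in wild-type (blue) and knockout (orange) cells. Error bars are SE and filled points have a limma adjusted p under 0.05. Rrp1b and Npm1 lie farthest to the right, and Nol12 farthest to the left in wild-type cells.

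Among RNA polymerase I subunits, Polr1e, a subunit of the heterodimer that assists initiation and elongation, was the member higher in MZB on both scales. Its rescaled level was 1.79, 2.12 and 2.18 in wild-type MZB, 1.92 and 2.08 in knockout MZB, 1.58 and 1.63 in wild-type FoB, and 1.41, 1.75 and 1.45 in knockout FoB. All 5 MZB libraries were above all 5 FoB libraries. The rescaled difference was 0.29 ± 0.11 (SE) in wild-type cells (limma adjusted p = 0.0465) and 0.33 ± 0.11 in knockout cells (limma adjusted p = 0.0377), and the latter call was lost without knockout MZB library 1 or 2 or knockout FoB library 1 or 3. Whether the wild-type call held with single libraries left out is not given here. Per cell the differences were 1.04 ± 0.19 (limma adjusted p = 1.42e-06) and 1.41 ± 0.19 (limma adjusted p = 2.85e-10). The catalytic subunit gene Polr1a differed per cell by 1.40 ± 0.19 in knockout cells (limma adjusted p = 3.63e-10) and Polr1d, shared with RNA polymerase III, by 1.40 ± 0.20 (limma adjusted p = 1.59e-09). After rescaling Polr1a, Polr1b, Polr1c and Polr1d did not pass in either genotype.

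The most abundant member was Npm1, at chr11:33152498-33164142, minus strand (mm10). After rescaling it was at 83.1, 94.7 and 79.1 in wild-type MZB and 74.4 and 75.6 in knockout MZB, against 54.7 and 51.2 in wild-type FoB and 50.7, 60.4 and 58.1 in knockout FoB. The lowest MZB library thus lay above the highest FoB library. The rescaled difference was 0.69 ± 0.095 in wild-type cells (limma adjusted p = 0.000153) and 0.41 ± 0.095 in knockout cells (limma adjusted p = 0.0059), and per cell it was 1.57 ± 0.22 (limma adjusted p = 2.47e-09) and 1.67 ± 0.22 (limma adjusted p = 1.64e-10). Ncl encodes nucleolin, which binds the nascent ribosomal RNA precursor. Its rescaled level was 24.3, 28.4 and 22.5 in wild-type MZB, 21.2 and 23.1 in knockout MZB, 20.9 and 18.9 in wild-type FoB and 20.6, 20.6 and 21.8 in knockout FoB. The wild-type groups did not overlap and the knockout groups did. Ncl was higher in wild-type MZB by 0.32 after rescaling (limma adjusted p = 0.0149) and by 1.19 ± 0.21 per cell (limma adjusted p = 4.67e-07). Its exons are overlapped on the same strand by Snora75, whose rescaled difference was 1.73.

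Of the box C/D snoRNP genes, whose products carry the methylation guides, Nop56 and Nop58 were higher in wild-type MZB and Fbl, the methyltransferase, did not pass after rescaling. After rescaling Nop56 was at 24.4, 24.4 and 25.2 in wild-type MZB, 23.4 and 23.9 in knockout MZB, 21.0 and 20.7 in wild-type FoB, and 18.9, 20.6 and 19.1 in knockout FoB. All MZB libraries were above all FoB libraries. The rescaled difference was 0.24 ± 0.060 in wild-type cells (limma adjusted p = 0.00731), a call lost without wild-type FoB library 2, and 0.27 ± 0.060 in knockout cells (limma adjusted p = 0.00492). Per cell the knockout difference was 1.52 ± 0.20 (limma adjusted p = 2.55e-10). Nop58 was 13.1, 15 and 12 in wild-type MZB and 10.2 and 9.56 in wild-type FoB after rescaling, a difference of 0.42 (limma adjusted p = 0.0133), and differed per cell by 1.28 ± 0.20 (limma adjusted p = 3.35e-08). Small nucleolar RNA genes overlap exons of Nop56 and Nop58 on the same strand.

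Of the box H/ACA genes, Dkc1, the pseudouridine synthase, at chrX:75095854-75109776, plus strand, was higher in wild-type MZB. Rescaled values were 10.1, 10.9 and 9.19 in wild-type MZB, 7.60 and 7.78 in knockout MZB, 6.69 and 6.62 in wild-type FoB, and 5.90, 7.28 and 7.74 in knockout FoB. The 3 wild-type MZB libraries were above all 7 others. The wild-type subset difference was 0.57 ± 0.11 (limma adjusted p = 0.00114) and the knockout one was 0.14 (limma adjusted p = 0.318). Per cell the wild-type difference was 1.42 ± 0.20 (limma adjusted p = 1.15e-09). Mpp1, whose exons overlap Dkc1 on the opposite strand, was also higher in wild-type MZB after rescaling, by 0.48 (limma adjusted p = 0.000856). The libraries were made with a stranded kit, and the labels do not say whether counting used strand. Nop10 differed per cell by 1.41 ± 0.20 in knockout cells (limma adjusted p = 1.55e-09), and Gar1, Nhp2 and Nop10 did not pass after rescaling in either genotype.

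The 22 small subunit processome members held 1 that was higher in wild-type MZB after rescaling and 3 that were lower. Utp3, a processome component, was higher, at 10.8, 11.9 and 11.7 against 10.1 and 9.23 in wild-type FoB (difference 0.24, limma adjusted p = 0.0138), and per cell it differed by 1.1 ± 0.20 (limma adjusted p = 1.09e-06). Imp4, a partner of the U3 snoRNA, was lower. The rescaled libraries read 4.59, 4.63 and 4.51 in wild-type MZB, 5.33 and 5.10 in knockout MZB, 6.20 and 5.75 in wild-type FoB, and 6.09, 5.72 and 5.21 in knockout FoB. The wild-type MZB libraries were below all others. The wild-type difference was -0.36 ± 0.077 (limma adjusted p = 0.00257), while per cell Imp4 was higher in MZB by 0.47. Nol6 was lower in wild-type MZB after rescaling, by -0.34 (limma adjusted p = 0.00838).

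Utp14b, a retrotransposed copy of Utp14a, was the least abundant member, at chr1:78657825-78667601, plus strand. Its values after rescaling were 0.589, 0.527 and 0.497 in wild-type MZB, 0.571 and 0.537 in knockout MZB, 0.990 and 0.850 in wild-type FoB, and 0.833, 0.786 and 0.867 in knockout FoB. Every MZB library was below every FoB library. The difference was -0.54 ± 0.11 in wild-type cells (limma adjusted p = 0.0018) and -0.40 ± 0.11 in knockout cells (limma adjusted p = 0.0139), and the latter call was lost without either knockout MZB library. Its exons overlap those of Acsl3 on the same strand. Acsl3 differed by -0.62 and -0.57 in the same comparisons, and how reads of Utp14b, Acsl3 and the parent Utp14a were divided is not known here. Nol10 was lower in knockout MZB than knockout FoB by -0.41 ± 0.082 (limma adjusted p = 0.00237), at 2.02 and 2.29 against 2.82, 2.96 and 3.15. Utp20 was lower by -0.29 ± 0.077 (limma adjusted p = 0.0123), at 2.73 and 2.73 against 3.31, 3.45 and 3.47, a call lost without either knockout MZB library.

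Of the 11 large subunit assembly factors, 2 were higher and 3 lower in wild-type MZB after rescaling. Rrp1b, a nucleolar protein of the Rrp1 family, at chr17:32036162-32062865, plus strand, was 3.07, 3.16 and 2.89 in wild-type MZB, 2.54 and 2.50 in knockout MZB, 1.79 and 1.77 in wild-type FoB, and 1.51, 1.2 and 1.31 in knockout FoB after rescaling. The 4 groups did not overlap. Exons of Hsf2bp overlap those of Rrp1b on the opposite strand, and 18 of the 50 members have such an overlap with another gene. The rescaled difference between subsets was 0.68 ± 0.094 in wild-type cells (limma adjusted p = 0.000149) and 0.78 ± 0.094 in knockout cells (limma adjusted p = 7.5e-05), and per cell it was 1.45 ± 0.19 (limma adjusted p = 1.01e-10) and 1.87 ± 0.19 (limma adjusted p = 3.01e-15). Nol9, a polynucleotide kinase of precursor processing, was 6.14, 6.37 and 5.91 in wild-type MZB and 5.01 and 4.83 in wild-type FoB. It was higher in wild-type MZB by 0.30 ± 0.066 after rescaling (limma adjusted p = 0.00304) and by 1.14 ± 0.19 per cell (limma adjusted p = 2.15e-07).

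Nol12, an RNA-binding nucleolar factor, had the lowest wild-type difference of the 50 members. Its rescaled level was 1.24, 1.31 and 1.18 in wild-type MZB and 2.87 and 2.30 in wild-type FoB, a difference of -0.90 ± 0.12 (limma adjusted p = 0.000151). On the per cell scale the same libraries were 1.40, 1.93 and 1.60 against 2.28 and 1.46, which overlap, and Nol12 was the only member with a negative wild-type difference (-0.14, limma adjusted p = 0.477). Nop53 and Rrp8 were also lower in wild-type MZB after rescaling, by -0.25 (limma adjusted p = 0.0128) and -0.44 (limma adjusted p = 0.0128). The exons of Rrp8 overlap those of Ilk on the opposite strand, and Ilk was lower by -0.47. Among the other members Rrp12 was lower by -0.39 in wild-type MZB (limma adjusted p = 0.00813). Mybbp1a, a repressor of ribosomal RNA gene transcription, was higher in knockout MZB than knockout FoB by 0.22 ± 0.070 after rescaling (limma adjusted p = 0.0303), at 17.3 and 18.9 against 16.0, 15.8 and 14.7, a call lost without knockout MZB library 2 or knockout FoB library 3. Per cell that difference was 1.46 ± 0.20 (limma adjusted p = 6.48e-10).

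The remaining members passed in neither rescaled comparison of the subsets, and their levels are given as mean mRNA per cell ± SD in the 3 wild-type MZB and the 2 wild-type FoB libraries. Among polymerase I subunits and snoRNP proteins these were 5.04 ± 0.779 and 2.49 ± 0.471 for Polr1a, 5.03 ± 0.797 and 2.68 ± 0.67 for Polr1b, 8.21 ± 1.65 and 4.32 ± 1.07 for Polr1c and 9.27 ± 1.85 and 4.88 ± 0.963 for Polr1d. They were 17 ± 4.06 and 9.86 ± 2.37 for Fbl, 6.17 ± 0.888 and 3.11 ± 0.627 for Gar1, 6.77 ± 1.35 and 3.76 ± 0.845 for Nhp2 and 15 ± 2.89 and 7.01 ± 0.853 for Nop10. Every wild-type MZB library was above every wild-type FoB library for each of these 8, as it was for 84.5% of all genes on this scale. In the small subunit processome the levels were 8.62 ± 0.722 and 5.26 ± 0.944 for Imp3, 14.9 ± 2.2 and 7.45 ± 0.869 for Nol7, 4.29 ± 0.779 and 2.45 ± 0.563 for Nol11, 2.45 ± 0.318 and 1.65 ± 0.487 for Nop9 and 8.05 ± 1.1 and 4.43 ± 1.15 for Nop14. For the Rrp members they were 5.52 ± 0.935 and 3.52 ± 0.447 for Rrp36, 6.41 ± 1.05 and 3.91 ± 0.801 for Rrp7a and 4.75 ± 0.677 and 2.65 ± 0.547 for Rrp9. For the Utp members they were 5.44 ± 0.88 and 2.53 ± 0.729 for Utp4, 5.38 ± 0.972 and 2.62 ± 0.513 for Utp6, 8.5 ± 1.98 and 4.65 ± 0.566 for Utp11, 5.75 ± 0.629 and 2.97 ± 0.624 for Utp14a and 5.26 ± 0.436 and 2.74 ± 0.682 for Utp15. Utp4, Utp6 and Utp15 belong to the subcomplexes that bind the precursor first. The same separation of the libraries, which 84.5% of all genes showed, held for all of them. The last 3 were 3.62 ± 0.897 and 1.84 ± 0.353 for Utp18, 2.34 ± 0.343 and 1.24 ± 0.18 for Utp23 and 2.31 ± 0.33 and 1.33 ± 0.169 for Utp25. Among large subunit factors the levels were 6.68 ± 1.17 and 3.97 ± 0.62 for Bop1 and 10.9 ± 1.56 and 5.78 ± 1.32 for Pes1, partners in 1 complex, and 7.21 ± 1 and 3.87 ± 0.952 for Nop2, 4.06 ± 0.431 and 2.05 ± 0.393 for Nop16, 23.7 ± 3.84 and 14.5 ± 2.3 for Rrp1 and 3.48 ± 0.566 and 2.24 ± 0.762 for Rrp15. Nol8 was at 5.95 ± 1.2 and 3.01 ± 0.551.

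**Figure D3:**
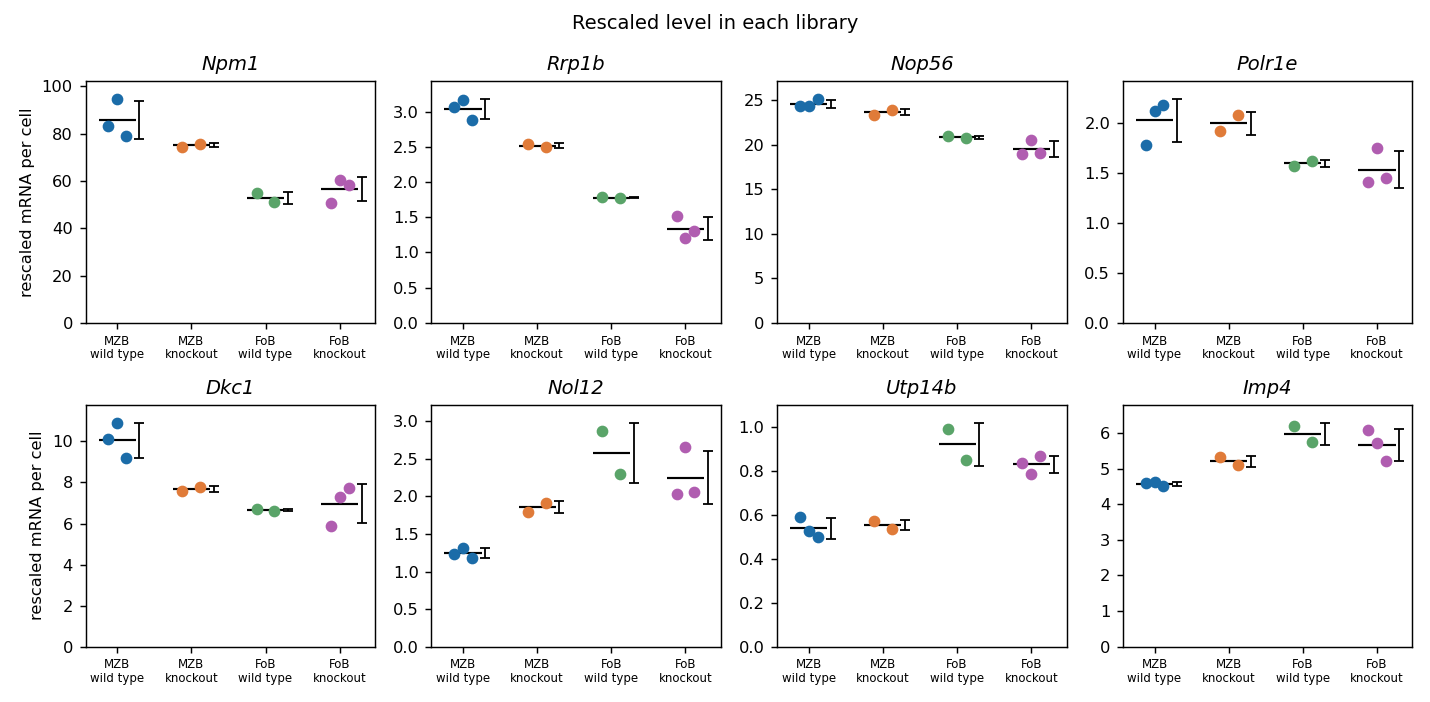
Rescaled level of 8 members in each library, on linear axes that start at 0. Points are libraries, horizontal bars are group means and error bars are SD. Npm1, Rrp1b, Nop56 and Polr1e are higher in every MZB library, and Utp14b is lower in every MZB library. The knockout MZB libraries lie above wild-type MZB for Nol12 and Imp4 and below for Npm1, Rrp1b, Nop56 and Dkc1. Of all genes 24.3% lay above and 21.3% below. Nol12 alone of these passed the knockout test, and Dkc1 did not (limma adjusted p = 0.0699).

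With loss of LSD1 in MZB, 1 of 50 members, Nol12, was called higher on both scales and 0 were called lower. Of all genes 13.3% were called higher per cell, 14.0% in either direction, and 3.36% higher after rescaling, 5.26% in either direction. The median member was 0.26 higher per cell, where the median gene was 0.32 higher, and differed by -0.06 after rescaling, where the median gene differed by 0.02. At an unadjusted p under 0.05 there were 10 members (20%) on each scale, against 38.7% of all genes per cell and 22.9% after rescaling. The same knockout MZB libraries had higher Lck (0.54, limma adjusted p = 0.0187), Itgam (1.17) and Flt3 (1.49) after rescaling, and the part of other cells in the members' values was not tested. All libraries of the knockout lay above those of the wild type for 18 members per cell, where 56.9% of all genes did. After rescaling they lay above for 6 members, where 24.3% of all genes did, and below for 17, where 21.3% did. The 17 include Dkc1, Gar1, Nop10, Nop56, Nop58 and Npm1, and the 6 are Imp4, Nol12, Nol6, Nop53, Nop9 and Rrp8.

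Nol12 was 2.77 and 3.37 mRNA per cell in knockout MZB against 1.40, 1.93 and 1.60 in wild-type MZB. In knockout FoB it was 1.38, 2.03 and 1.28. On this scale the 2 knockout MZB libraries were above all 8 others. Of all genes, 97.5% were above in knockout MZB against knockout FoB and 56.9% against wild-type MZB. The per cell change was 0.80 ± 0.19 on the log2 scale (limma adjusted p = 0.00232), and the rescaled levels of 1.80 and 1.91 against 1.24, 1.31 and 1.18 gave 0.48 ± 0.12 (limma adjusted p = 0.0488). After rescaling the knockout MZB libraries lay below every FoB library. Those read 2.03, 2.66 and 2.05 in knockout FoB and 2.87 and 2.30 in wild-type FoB. Of all genes 28.5% were below in knockout MZB against knockout FoB. The gene lies on chr15:78934933-78941910, plus strand, with no other gene overlapping its exons, and rests on 63 to 158 reads per library. The rescaled call was lost when any 1 MZB library was left out (limma adjusted p = 0.0889 to 0.301), and the per cell call without knockout MZB library 2 (0.67, limma adjusted p = 0.157). The other members nearest the threshold were Imp4 and Nop9 per cell, at 0.50 ± 0.19 (limma adjusted p = 0.0626) and 0.46 ± 0.19 (limma adjusted p = 0.0724), and Nol9 and Dkc1 after rescaling, at -0.24 ± 0.066 (limma adjusted p = 0.0565) and -0.37 ± 0.11 (limma adjusted p = 0.0699). Leaving out wild-type MZB library 2 raised the per cell count to 7.

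In FoB, where the rescaled Kdm1a change was -1.1 against -0.69 in MZB, 0 of 50 members were called on either scale by limma. The share of all genes called was 0.712% per cell and 0.588% after rescaling. At an unadjusted p under 0.05 there were 0 members per cell, against 3.85% of all genes, and 3 (6%) after rescaling, against 14.6% of all genes, and limma voom on the recovered reads also called 0. After rescaling the knockout libraries lay above those of the wild type for 3 members (14.9% of all genes) and below for 9 (16.3%). The lowest values were those of Rrp1b, at -0.37 ± 0.19 per cell (limma adjusted p = 1) and -0.35 ± 0.094 after rescaling (limma adjusted p = 0.173). Rrp8 differed by -0.31 ± 0.19 per cell (limma adjusted p = 1) and -0.28 ± 0.12 after rescaling (limma adjusted p = 0.333). Polr1b differed by -0.27 ± 0.19 (limma adjusted p = 1) and -0.23 ± 0.083 (limma adjusted p = 0.262). The 95% intervals of the 50 rescaled changes, not adjusted for their number, all lay between -0.55 and 0.38.

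**Figure D4:**
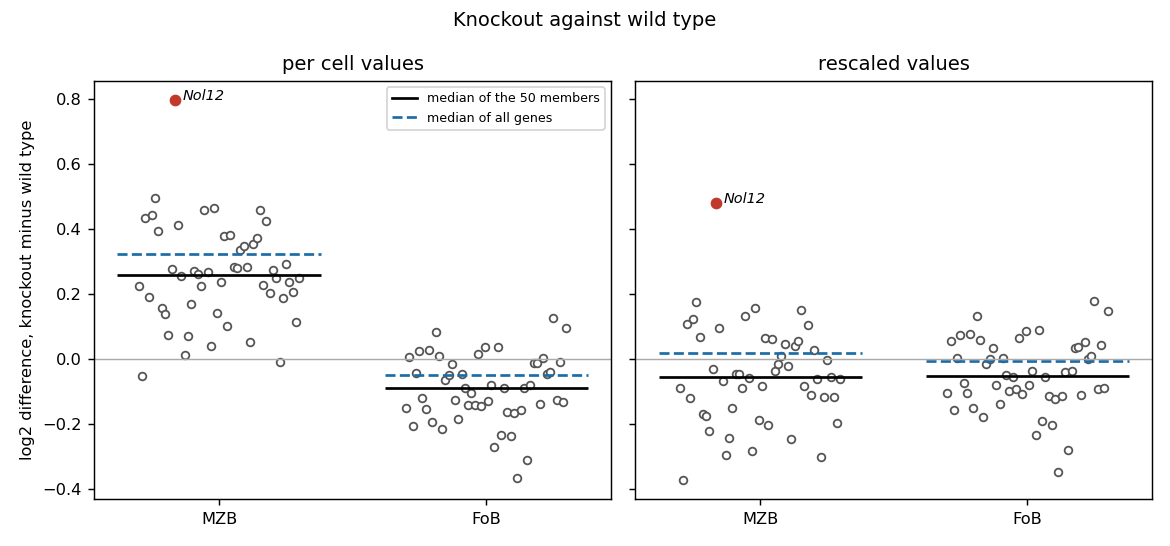
Log2 difference between knockout and wild type for each of the 50 members in MZB and FoB, per cell (left) and rescaled (right). The filled red point is Nol12 in MZB, the only one with a limma adjusted p under 0.05, and lines mark the median of the 50 members and of all genes. On the per cell scale the MZB points centre on 0.26 and the FoB points on -0.09.

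The difference between the knockout effects in the 2 subsets was tested directly. Per cell it passed for 1 member, Nol12, at 1.01 ± 0.27 (limma adjusted p = 0.0241), where 2.34% of all genes were called. Rrp8 was at 0.77 ± 0.27 (limma adjusted p = 0.0904) and Nop9 at 0.61 ± 0.27 (limma adjusted p = 0.144). After rescaling limma called 0 members, where 0.31% of all genes were called, with 6 members (12%) at an unadjusted p under 0.05, against 22.8% of all genes, and 1, Nol12, called by limma voom on the reads. Nol12 was at 0.66 ± 0.17 (limma adjusted p = 0.093), Nol10 at -0.35 ± 0.12 (limma adjusted p = 0.125) and Dkc1 at -0.43 ± 0.15 (limma adjusted p = 0.139). The per cell Nol12 call was lost without knockout MZB library 2, wild-type MZB library 1, knockout FoB library 1 or 3, or wild-type FoB library 1 (0.74 and limma adjusted p = 0.402 without the last).

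A further 134 genes listed for the pathway, such as RNA polymerase I initiation factors, the nuclear exosome and other assembly factors, were divided in direction too. After rescaling, 20 were higher and 35 lower in wild-type MZB than FoB, where 24.9% and 25.1% of all genes were, and 10 higher and 17 lower in knockout cells, where 18.1% and 17.1% of all genes were. In all 41% of the 134 were called in wild-type and 20.1% in knockout cells. In MZB 3 of 134 (2.24%) were lower in the knockout after rescaling, a share near the 1.9% of all genes called lower: Gnl3, which encodes nucleostemin, by -0.42 (limma adjusted p = 0.0242), Rpf2, a factor that helps load 5S RNA, by -0.43 (limma adjusted p = 0.0232), and Taf1d, a subunit of the polymerase I selectivity factor, by -0.63 (limma adjusted p = 0.0369). Per cell 7 (5.22%) were higher, where 13.3% of all genes were: Npm3, Tcof1, Ruvbl1, Mpp6, Znrd1, Pih1d1 and Exosc4. In mouse the symbol Mpp6 names a membrane scaffold gene and not the exosome factor. The 134 and the 7 therefore include a gene outside the pathway. In FoB limma called 0 of 134 on either scale, with 0 at an unadjusted p under 0.05 per cell and 16 after rescaling, against 3.85% and 14.6% of all genes. Of 84 genes with cytosolic ribosomal protein symbols 2 were higher and 1 lower in wild-type MZB than FoB after rescaling, and of 76 mitochondrial ones 2 were higher and 11 lower, which is 3.57% and 17.1% called where 50.1% of all genes were.

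Cell cycle genes moved with the subset. The 20 listed genes, which include Mki67 and Mcm2 to Mcm7, summed to 59.4 to 73.5 in wild-type MZB and 44.9 to 45.0 in wild-type FoB after rescaling, and 13 of 20 (65%) were higher, where 24.9% of all genes were. The sum was 74.8 to 86.2 in knockout MZB and 40.6 to 42.6 in knockout FoB. The 10 activation genes, which include Myc and Cd69, summed to 85.0 to 94.3 in wild-type MZB and 86.5 to 93.5 in wild-type FoB. The 3 measured of 6 plasma cell genes, Xbp1, Irf4 and Mzb1, summed to 83.6 to 93.3 and 48.2 to 48.3. The part of dividing or secretory cells in the values of Npm1, Dkc1 and the other members was not tested.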

How the data were processed

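Poly(A)-selected RNA of 50000 sorted splenic B cells per library was sequenced from 10 libraries in 4 groups, formed by labelled cell type and genotype. The authors deposited a table of signal, named mRNA per cell, with a value for each gene in each library. STAR and the mm10 build are named, per the submitters' processing notes. How reads were counted and converted to molecules per cell is not given in the sources used. Entrez identifiers were matched to symbols in the GRCm38.p6 annotation (9681 of 9690 genes). All 10 columns were assigned to samples and 0 stayed without one.

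Low and high values of a gene are multiples of a step, the worth of 1 read, and whole reads came out within 0.002 reads for 100% of genes, with library sums of 4161051 to 6711847. The step fell with transcript length (Spearman 0.83 between its inverse and the length, across 9255 genes, which are not independent), so the deposited signal acts as a level per length. Precision is set by these reads and by 2 or 3 libraries per group.

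Groups were compared in limma 3.58.1 (R 4.3.3), by lmFit, contrasts and eBayes with intensity trend, on log2(value + 0.3), two-sided, over all 10 libraries with 1 coefficient per group, after a floor of 0.3 in at least 2 libraries. Fold changes are on that scale, which understates changes of low genes. Rescaled values divide each library by an unweighted trimmed mean of log-ratios (trims of 0.3 and 0.05). Adjustment followed Benjamini-Hochberg across all 9690 genes, and 0.05 was the threshold. The fits were tested on simulated data. The simulated errors were drawn for each gene alone, with no factor shared within a library. The test therefore could not check how shared errors affect the per cell calls.

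The members and lists were chosen with earlier results of these data known, and the ribosomal protein lists after the values were seen. Every member is accounted for in its role, and changes with errors are given for up to 8 called members with the smallest p per comparison and scale, or for 3 where fewer than 3 were called. Other members, and the genes overlapping them, were named after their values were seen. Alternatives covered the pseudocount, floor, trend, library weights, scaling, replicate block, limma voom on reads, the compared groups alone and each library left out. No sample was left out.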

Additional observations from a re-analysis of the deposited data

Results flagged for a closer look

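The knockout effect on Nol12 per cell differed between the subsets by 1.01 on the log2 scale (limma adjusted p = 0.0241), the 1 member for which the test of the difference between MZB and FoB passed. In MZB the knockout libraries were 2.77 and 3.37 against 1.40, 1.93 and 1.60 in the wild type, and in FoB they were 1.38, 2.03 and 1.28 against 2.28 and 1.46. After rescaling the difference was 0.66 (limma adjusted p = 0.093). Groups of 2 or 3 libraries are too small for a check of single libraries that stand apart.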

How the results depend on the processing

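Of 93 alternative counts of called members, 81 stayed within 1.5 times the reported count and 12 did not. These 93 do not include the fits with a library left out, whose counts are given below. Among alternatives for named members, which do include those fits, 698 kept direction and side of the threshold, 31 lost the call, 13 gained it and 0 reversed. For MZB knockout against wild type per cell the count was 1, against 3 with a pseudocount of 1 (Imp4, Nop9 and Nol12) and 0 with a floor of 3. After rescaling it was 0 with a pseudocount of 1, a floor of 3, no intensity trend or the replicate block, 4 with library weights or limma voom on reads (Nol12, and Nol8, Nol9 and Dkc1 lower) and 2 in the compared groups alone (Nol12 and Dkc1). For the difference between knockout effects it was 0 per cell with a floor of 3 or the replicate block, and 1 after rescaling with limma voom on reads. A floor of 3 removes Nol12 from the tested genes, and for the others the cause was not tested. The weighted trimmed mean, added after the data were seen, moved no count by over 1.5 times.

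Leaving out 1 library at a time gave 35 to 48 members per cell and 11 to 17 rescaled between wild-type subsets, 49 to 50 and 4 to 11 between knockout subsets, 0 to 7 and 0 to 0 for the MZB knockout, 0 to 0 on both scales for the FoB knockout, and 0 to 2 and 0 to 1 for the difference between knockout effects. Lone libraries were taken to vary like the other groups.

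Replicate numbers are shared by at most 2 pairs per comparison and the labels do not say what they mark. Deviations of same-numbered libraries correlated at -0.14 to 0.21 per cell and -0.11 to 0.19 rescaled over 8 pairs. Libraries with different numbers were not correlated, so these values cannot decide whether the numbers pair the libraries. The main fits used no pairing. With the block the Nol12 values were 0.44 (limma adjusted p = 0.125) for the MZB knockout after rescaling and 0.89 (limma adjusted p = 0.213) for the difference between knockout effects per cell.

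The fewest reads stood behind Utp14b, Rrp15 and Nol12, with means of 74.2, 89.9 and 102.3 per library, so their values are the least precise by counting error.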
